A study of Mus musculus with 11 samples.

Results

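The sine oculis homeobox (Six2, Six4 and Six5), eyes absent (Eya) and dachshund (Dach1) genes were followed through the embryonic mouse mandibular arch, using the probe sets whose only gene symbol in the array annotation was Six2, Six4, Six5, Eya1, Eya2, Eya3, Eya4 or Dach1. These are 8 of the 18194 genes that the array's annotation names, and they have 21 of its 45101 probe sets: 1 each for Six2, Six5 and Eya2, 3 each for Eya1 and Dach1, and 4 each for Six4, Eya3 and Eya4. The study compared the medial piece of the arch, taken at the distal end of the lateral lingual swellings, with the lateral tissue left over, and also followed the medial piece through time. It used 11 Affymetrix arrays in 6 groups: medial and lateral at E9.7 (1 array each), medial and lateral at E10.5 (3 each), medial at E11.5 (2) and medial at E14.5 (1). All embryos were of the outbred ICR strain, no mutation or treatment is given for any group, and each array is labelled as RNA from 40 embryos. At E14.5 the labels name the tongue and its anterior part, so that array differs from the others in stage and in dissection at once, and E11.5 and E14.5 had medial tissue only. The labels do not say whether replicates came from separate pools, so p-values measure the spread between arrays, which may be technical.

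Six2, Six4 and Six5 encode homeodomain transcription factors of the sine oculis family, which bind DNA but depend on partners to activate or repress. Eya proteins are the partners that activate: they carry no DNA-binding domain, enter the nucleus with sine oculis family proteins, and have a phosphatase domain. Dach proteins, relatives of the Ski corepressors, bind the complexes of both and in many settings repress their targets. Together with Pax factors the network is known for building the eye, ear, kidney, skeletal muscle and pharyngeal arches. In the head, genes of both families act both in neural crest mesenchyme and in the mesoderm that makes jaw and tongue muscle.

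RefSeq (build GRCm38.p6) gave 8 promoter windows, each the 250 bases before a gene's start, for 6 of the 8 genes. The windows of Six2 and Dach1 are shown because both genes read lower in medial tissue at E10.5, and the first of 2 windows of Six4 because it is the only 1 of the 8 with the core of MEF3, an element that sine oculis family proteins bind. Capitals mark matches, on either strand, to the GC box GGGCGG, the CCAAT box CCAAT, the TATA box TATAAA or the MEF3 core TCAGGTT, and no matches overlap. The sequences run 5′ to 3′ along the gene's strand.
Six2, chr17:85688255-85688504, minus strand: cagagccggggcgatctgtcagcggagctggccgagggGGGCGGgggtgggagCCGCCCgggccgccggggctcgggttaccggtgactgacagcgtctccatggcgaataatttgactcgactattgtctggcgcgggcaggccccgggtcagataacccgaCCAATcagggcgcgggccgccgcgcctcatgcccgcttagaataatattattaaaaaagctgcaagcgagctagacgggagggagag
Dach1, chr14:98169766-98170015, minus strand: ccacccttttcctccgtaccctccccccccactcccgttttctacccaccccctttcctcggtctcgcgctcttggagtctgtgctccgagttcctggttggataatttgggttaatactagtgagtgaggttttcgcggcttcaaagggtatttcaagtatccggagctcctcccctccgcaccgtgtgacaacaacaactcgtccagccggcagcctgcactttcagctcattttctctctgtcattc
Six4, chr12:73113246-73113495, minus strand: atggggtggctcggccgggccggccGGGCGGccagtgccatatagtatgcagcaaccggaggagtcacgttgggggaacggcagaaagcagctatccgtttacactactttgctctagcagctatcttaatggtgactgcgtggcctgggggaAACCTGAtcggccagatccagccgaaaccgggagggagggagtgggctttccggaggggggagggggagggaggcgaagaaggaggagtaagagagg
The Six2 window held 2 GC boxes and 1 CCAAT box, the Six4 window 1 GC box and 1 MEF3 core, and the Dach1 window none of the 4. Among 32851 RefSeq windows of the same length, 32.7% held a GC box, 33.8% a CCAAT box, 12.4% a TATA box and 3.49% the MEF3 core. A match is a string of letters and was not tested for binding.

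Values are log2 array signals after quantile normalization across the 11 arrays, so a difference of 1 is 2-fold. Signals of different probe sets are not comparable as amounts of RNA, and each probe set was compared only with itself. A probe set was tested where at least 2 of the 8 replicated arrays reached the median of all values (4.86). That kept 24339 probe sets and 17 of the 21 here, and left out 1 dim probe set each for Six4, Eya3, Eya4 and Dach1. Before normalization 2 medial arrays, the first replicates at E10.5 and at E11.5, had medians of 2.37 and 2.47 against 5.20 to 5.73 on the other 9. They stayed apart after it: pairs of replicates that included 1 of them had 2.41% to 3.98% of tested probe sets at least 2-fold apart, against 0.0411% to 0.571% for the other pairs. Clustering of spiked-in control probes put both in a group of their own (group 2), split the other E9.7 to E11.5 arrays into groups 1 and 3, and set the E14.5 array alone. Group 1 took in the pair at E9.7, the second medial replicate of both E10.5 and E11.5 and the first lateral replicate at E10.5, and group 3 the remaining 3 E10.5 arrays. All 8 arch mesenchyme markers looked at, such as Prrx1 and Msx1, passed the filter, with a mean of 9.73 to 9.93 on medial and 9.77 to 9.84 on lateral E10.5 arrays.

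**Figure D1:**
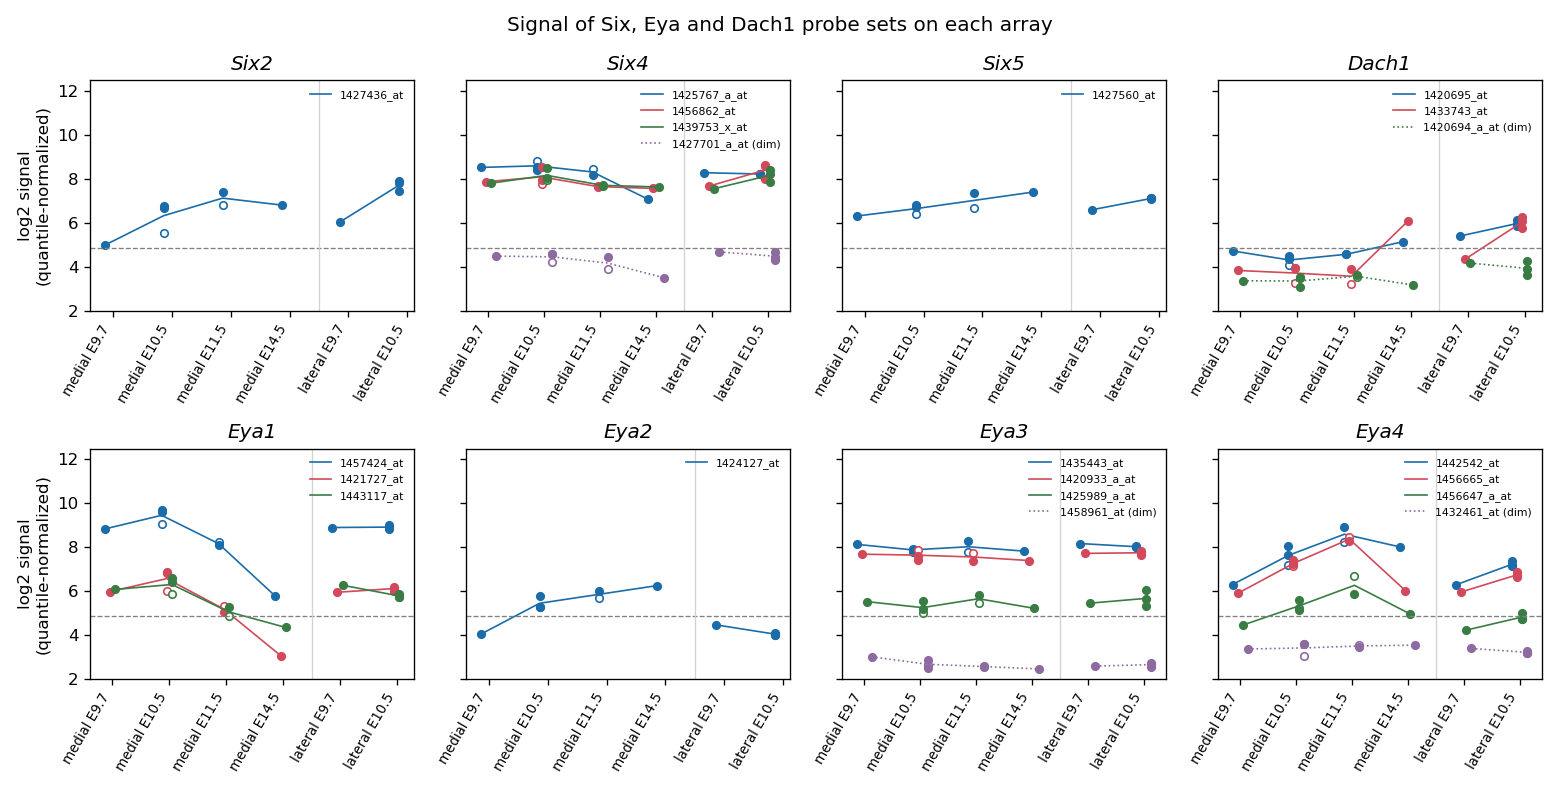
Log2 signal (quantile-normalized) of every probe set of the 8 genes on the 11 arrays, 1 panel per gene, with medial groups to the left and lateral groups to the right of the vertical line. Open symbols are the 2 arrays of low deposited signal, dotted lines are the 4 dim probe sets, and the dashed line is the filter level of 4.86. Dach1 by 1420695_at stands highest on the lateral E10.5 arrays, Eya2 is below the filter level on every lateral array and on the medial E9.7 array, and the 3 Eya1 probe sets are lowest at E14.5.

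At E10.5 the region comparison asked which genes distinguish the medial from the lateral arch. Dach1 was 3.16-fold and 4.99-fold lower in medial tissue by its 2 tested probe sets, and Eya2 was 2.65-fold higher. Six2 was 2.64-fold lower in mean but missed the threshold. In all, 1 of the 17 tested probe sets was higher in medial tissue and 2 were lower at a limma adjusted p under 0.05. Of all 24339 probe sets, 2.96% were called, 1.89% higher and 1.07% lower. Medial and lateral arrays did not overlap for 11 of the 17, and for 21.9% of all probe sets. These 11 include both tested Dach1 probe sets and more than 1 of Eya1 and of Eya4, so they are not 11 separate genes. The median difference was -0.01 for the 17 and -0.01 for all probe sets, and the median absolute difference 0.47 and 0.16. The 3 probe sets called were above the filter level at E10.5 only on the side on which they are high, so their count is not read as a share of the genes. On the scale as deposited, without normalization between arrays, limma called none of the 17 (3 at an unadjusted p under 0.05).

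Dach1, the corepressor of the network, read 4.10, 4.35 and 4.48 on medial replicates 1, 2 and 3 and 5.94, 6.12 and 5.85 on lateral replicates 1, 2 and 3 (probe set 1420695_at). The second probe set (1433743_at) read 3.28, 3.93 and 3.94 medially and 6.25, 6.10 and 5.75 laterally. Every lateral array lay more than 2-fold above every medial array in both probe sets. The medial minus lateral differences were -1.66 ± 0.14 (limma adjusted p = 0.000482) and -2.32 ± 0.25 (limma adjusted p = 0.00163), where ± is the standard error with 3 arrays a side. Within control-probe group 1 the differences were -1.59 and -2.32, and within group 3 they were -1.5 and -1.99. All medial values lay below the filter level. Without any filter the limma adjusted p-values were 0.000431 and 0.00111.

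Eya2 was higher in medial tissue. This coactivator, which is known from muscle precursors and the sensory placodes, read 5.31, 5.80 and 5.26 on the medial arrays and 4.01, 4.01 and 4.12 on the lateral arrays (1424127_at). The 3 lateral arrays were close together and below the filter level, and all 3 medial arrays were above it. The difference was 1.41 ± 0.17 (limma adjusted p = 0.00255), 1.79 within control-probe group 1 and 1.20 within group 3.

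Six2, which keeps kidney progenitors undifferentiated and is known in facial mesenchyme, read 5.55, 6.77 and 6.66 medially and 7.46, 7.81 and 7.91 laterally. Its groups did not overlap, and medial replicate 1, a low-signal array, lay more than 2-fold below the other 2 medial arrays. The difference was -1.40 ± 0.32 (95% interval -2.13 to -0.67), with limma adjusted p = 0.0592. Without medial replicate 1 it was -1.0 with an adjusted p of 0.044 in the limma fit, and within the control-probe groups -0.69 and -1.20. Six5, a Six4 relative that lies beside the myotonic dystrophy kinase gene, read 6.39, 6.73 and 6.81 against 7.11, 7.13 and 7.09. That difference of -0.47 ± 0.19 did not pass (limma adjusted p = 0.315), although the groups did not overlap.

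Six4, which acts in muscle precursors, gave no single answer across its probe sets. Probe set 1425767_a_at read 8.83, 8.54 and 8.41 medially and 8.23, 8.23 and 8.20 laterally, a difference of 0.37 ± 0.14 (limma adjusted p = 0.274), which turned to -0.58 on the deposited scale. By 1456862_at the values were 7.78, 7.97 and 8.53 medially and 8.60, 8.0 and 8.62 laterally, and by 1439753_x_at 7.95, 8.04 and 8.50 and 8.41, 7.86 and 8.24. For 1456862_at the difference was -0.31 ± 0.23 and for 1439753_x_at it was -0.01 ± 0.19, with medial and lateral arrays overlapping in both. Neither passed the limma test (adjusted p = 0.611 and 0.992), and the sign of 1439753_x_at turned under several settings.

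Eya1 and Eya4 had medial means above lateral ones in all of their tested probe sets, and none passed the test. Eya1, whose human counterpart is mutated in branchio-oto-renal syndrome, read 9.08, 9.60 and 9.7 medially and 9.02, 8.92 and 8.83 laterally by 1457424_at. Its difference was 0.54 ± 0.17 (limma adjusted p = 0.195), and 1421727_at and 1443117_at gave 0.45 ± 0.22 and 0.52 ± 0.20 (limma adjusted p = 0.438 and 0.289). By 1421727_at it read 6.01, 6.89 and 6.83 against 6.17, 6.2 and 6.01, and by 1443117_at 5.89, 6.43 and 6.62 against 5.74, 5.74 and 5.88. The low-signal medial replicate 1 was the lowest medial value in all 3 probe sets. Without it, 1457424_at differed by 0.72 and 1421727_at by 0.73, and both passed (limma adjusted p = 0.0212 and 0.0255). The third, 1443117_at, differed by 0.73 and just missed the threshold (limma adjusted p = 0.0519). In that fit 6 of the 17 probe sets were called, against 3 with all arrays.

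Eya4, known from inherited deafness and heart muscle disease, read 7.17, 7.42 and 7.22 against 6.89, 6.73 and 6.63 by 1456665_at, whose groups did not overlap. Its difference of 0.52 ± 0.13 missed the threshold (limma adjusted p = 0.0814), as did 0.40 ± 0.24 for 1442542_at and 0.50 ± 0.22 for 1456647_a_at. These read 7.18, 8.06 and 7.67 against 7.38, 7.14 and 7.19, which overlap, and 5.24, 5.61 and 5.15 against 5.0, 4.73 and 4.76, which do not. On the deposited scale, where all values of the low-signal array are shifted down, these Eya1 and Eya4 differences turned negative. Eya3, the most widely expressed Eya gene, differed by -0.14, -0.11 and -0.42 in its 3 tested probe sets, with limma adjusted p-values of 0.712, 0.802 and 0.435. The 95% intervals were -0.47 to 0.18, -0.45 to 0.23 and -0.90 to 0.05, so the first 2 leave room for less than a 1.5-fold change in either direction and the last for a larger fall.

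**Figure D2:**
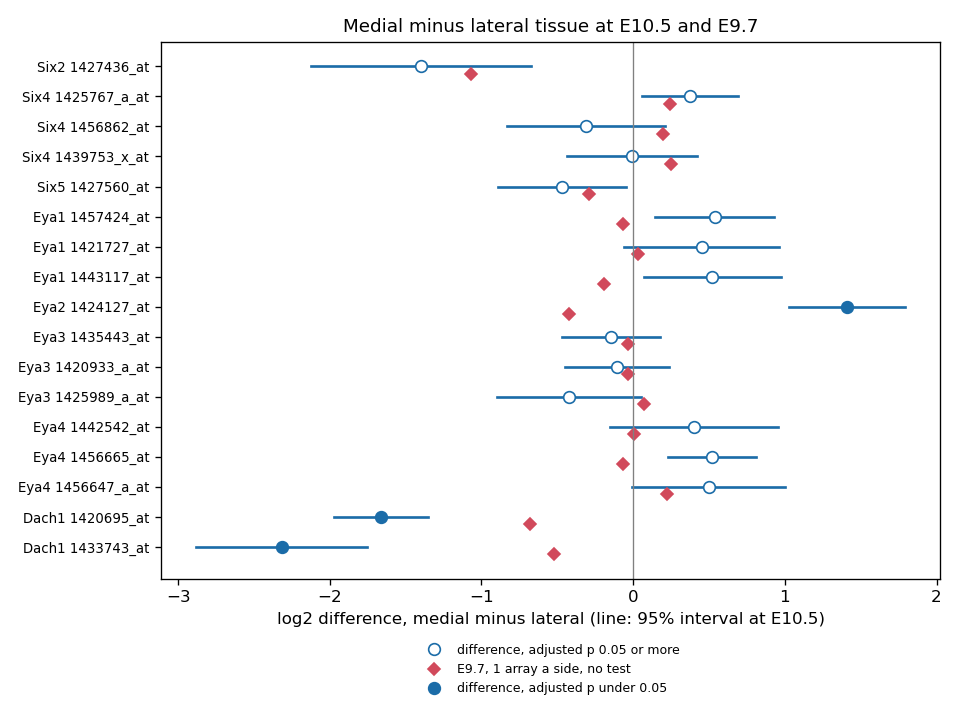
Medial minus lateral difference (log2) of each tested probe set at E10.5, with 95% intervals from limma over 3 against 3 arrays; filled points have an adjusted p under 0.05. Red diamonds are the single-array differences at E9.7. The 2 Dach1 points lie at -1.66 and -2.32 and Eya2 at 1.41, while the open Six2 point lies at -1.40 with a wide interval.

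Cell type markers also differed between the regions. Medial tissue was higher for 5 of 8 epithelial markers (mean signal 8.04 to 8.16 against 7.32 to 7.44 on lateral arrays) and 2 of 7 endothelial markers (7.04 to 7.17 against 6.49 to 6.68). It was lower for 2 of the 6 tested muscle precursor markers (5.18 to 5.22 against 5.45 to 5.78), 1 of 9 differentiated muscle markers (Tnnt1, -0.74 ± 0.16, limma adjusted p = 0.0457) and both tested cartilage markers (7.43 to 8.27 against 9.20 to 9.48). Of 2 tested glial markers Fabp7 was lower, with a difference of -2.06 ± 0.14 (limma adjusted p = 0.000187), and it reached the filter level on no medial array. Of 5 tested tendon and connective tissue markers Lum was higher, by 1.95 ± 0.21 (limma adjusted p = 0.0016), and the median difference of the 5 was -0.02. Scx went the other way, with a difference of -0.82 ± 0.18, and just missed the threshold (limma adjusted p = 0.050007). Among the 8 arch mesenchyme markers Hand2 was higher by 1.45 ± 0.16 and Dlx5 was lower, with a difference of -1.73 ± 0.29 (limma adjusted p = 0.00205 and 0.0125). No tested neuronal, red cell or macrophage marker was called by limma (0, 0 and 1 at an unadjusted p under 0.05). Their part in the Dach1, Eya2 and Six2 differences was not tested. In bulk tissue, fewer cells of a type and less RNA per cell cannot be told apart.

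At E9.7 each region had 1 array, so differences are given without a test. Six2 alone was at least 2-fold apart, at 4.98 medially and 6.05 laterally, a difference of -1.07. Of all tested probe sets 1.25% were that far apart, 0.744% higher and 0.509% lower in medial tissue. Dach1 also stood lower medially, at 4.72 against 5.4 and 3.83 against 4.35 in its 2 probe sets, which are differences of -0.68 and -0.52. Eya2 read 4.05 and 4.47, so at this stage the medial array was the lower one (-0.42). The Eya1 probe sets differed by -0.07, 0.03 and -0.19, the Eya4 probe sets by 0.01, -0.07 and 0.22, and Six5 by -0.29. For Six4 the differences were 0.24, 0.19 and 0.25, all within 1.5-fold.

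Several of the genes stood higher at E10.5 than at E9.7, again against single E9.7 arrays and with no test. In medial tissue Eya2 went from 4.05 to 5.31, 5.80 and 5.26, and Eya4 (1456665_at) from 5.90 to 7.17, 7.42 and 7.22. Every E10.5 array of these 2 probe sets lay at least 2-fold above the E9.7 array, as 0.555% of all tested probe sets did (0.740% in either direction). Six2 went from 4.98 to 5.55, 6.77 and 6.66, with the low-signal replicate 1 as the exception below 2-fold. The mean differences were 1.41 for Eya2, 1.37 for Eya4 and 1.34 for Six2. Without replicate 1, 4 probe sets reached 2-fold.

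In lateral tissue the probe sets at least 2-fold higher at E10.5 were Six2, from 6.05 to 7.46, 7.81 and 7.91, and Dach1 (1433743_at), from 4.35 to 6.25, 6.10 and 5.75. Their mean differences were 1.67 and 1.68, and 0.756% of all tested probe sets were that much higher (1.36% in either direction). The other Dach1 probe set went from 5.4 to 5.94, 6.12 and 5.85, a difference of 0.57, while in medial tissue it went from 4.72 to 4.10, 4.35 and 4.48 (-0.41). Eya4 differed by 0.93, 0.78 and 0.60 in lateral tissue, all higher at E10.5. Eya2 differed by -0.42, toward lower values at E10.5, and Eya1 showed no common direction at 0.02, 0.17 and -0.49. Six5 was higher at E10.5 in both regions, by 0.34 medially and 0.51 laterally, though the medial sign turned on the deposited scale.

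Between E10.5 and E11.5 Eya1 fell in medial tissue and Eya4 stood higher, with 1 Eya4 probe set passing the test. All 3 Eya1 probe sets fell, by 2.44-fold, 2.61-fold and 2.37-fold. All 3 tested Eya4 probe sets were higher in mean at E11.5, and the 1 that passed rose by 2.15-fold. Of the 17 tested probe sets, 1 was higher and 3 were lower at a limma adjusted p under 0.05, and the 3 lower ones are the same gene. Over all 24339 probe sets 4.31% were called, 2.68% higher and 1.62% lower. The arrays of the 2 stages did not overlap for 10 of the 17, and for 25.1% of all probe sets. These 10 include the 3 Eya1 and the 3 tested Eya4 probe sets, so they are not 10 separate genes. The median difference was 0.14 for the 17 and -0.02 for all, and the median absolute difference 0.44 and 0.16. This comparison uses the same medial E10.5 arrays as the comparison of regions, so its values stand beside the earlier ones and are no independent support for them. On the scale as deposited limma called none of the 17, and none had an unadjusted p under 0.05.

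Eya1 read 9.08, 9.60 and 9.7 on the E10.5 arrays and 8.26 and 8.09 on the E11.5 arrays by 1457424_at, with no overlap. Probe set 1421727_at went from 6.01, 6.89 and 6.83 to 5.32 and 5.08, and 1443117_at from 5.89, 6.43 and 6.62 to 4.86 and 5.27. Each E11.5 array was thus below each E10.5 array in all 3 probe sets. The differences were -1.29 ± 0.19, -1.38 ± 0.25 and -1.24 ± 0.22, with limma adjusted p-values of 0.00596, 0.0164 and 0.0147. Within control-probe group 1 they were -1.51, -1.82 and -1.16, and within group 2, which holds the low-signal arrays of both stages, -0.82, -0.70 and -1.03. The calls depended on single arrays. The adjusted p of 1457424_at was 0.0594 without E11.5 replicate 2, that of 1421727_at was 0.114 without the same array, 0.0746 without E11.5 replicate 1 and 0.0526 without E10.5 replicate 3. For 1443117_at it was 0.124 without E11.5 replicate 1 and 0.0515 without E10.5 replicate 2. With only the arrays of these 2 stages in the fit, limma gave 0.0726 for 1421727_at and 0.0705 for 1443117_at.

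Eya4 read 7.17, 7.42 and 7.22 at E10.5 and 8.47 and 8.28 at E11.5 by 1456665_at, with every E11.5 array above every E10.5 array. The difference was 1.11 ± 0.14 (limma adjusted p = 0.00262), 0.86 and 1.30 within control-probe groups 1 and 2. It was above the threshold at 0.0532 when arrays were only centred on their medians. At E11.5 probe set 1442542_at read 8.27 and 8.93 and 1456647_a_at read 6.69 and 5.86. They had differences of 0.96 ± 0.27 and 0.94 ± 0.25, also with no overlap between stages, and did not pass (limma adjusted p = 0.105 and 0.0803). Within control-probe groups 1 and 2 the differences were 0.87 and 1.08 for 1442542_at. For 1456647_a_at they were 0.25 and 1.45, the larger one between the low-signal arrays. Eya2 read 5.69 and 6.03 at E11.5 and overlapped its E10.5 values (0.40 ± 0.19, limma adjusted p = 0.378). Six2 read 6.83 and 7.42, with a difference of 0.80 ± 0.36 and a limma adjusted p of 0.346.

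Six4 differed by -0.28, -0.44 and -0.46 between the stages, Six5 by 0.38, Eya3 by 0.14, -0.09 and 0.40, and Dach1 by 0.26 and -0.15. None of these passed, and with 2 arrays at E11.5 the intervals were wide: for Dach1 they were -0.09 to 0.61 and -0.77 to 0.48. Both Dach1 probe sets stayed below the filter level on the E11.5 arrays, as on the medial E10.5 arrays.

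**Figure D3:**
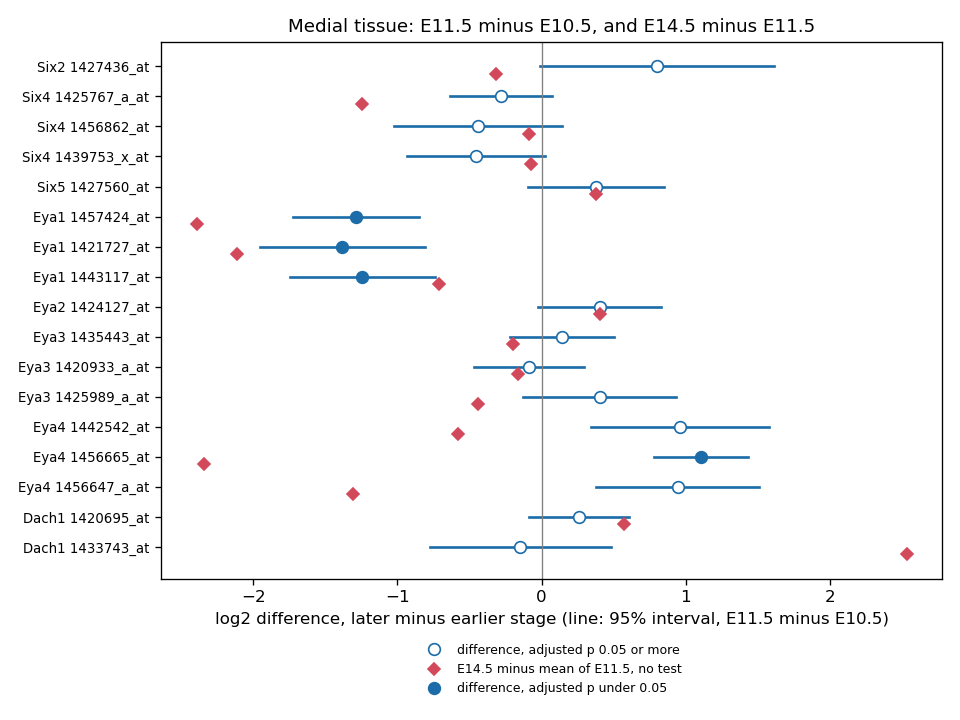
Difference (log2) between medial E11.5 and medial E10.5 for each tested probe set, with 95% intervals from limma over 2 against 3 arrays; filled points have an adjusted p under 0.05. Red diamonds give E14.5 minus E11.5 from 1 against 2 arrays, with no test. The 3 Eya1 probe sets lie at -1.29, -1.38 and -1.24 and the filled Eya4 point at 1.11.

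Cell type markers changed over the same interval. All 6 tested muscle precursor markers rose (mean signal 5.18 to 5.22 at E10.5, 8.08 to 8.25 at E11.5), as did 7 of 9 markers of differentiated muscle (4.36 to 4.53, then 7.08 to 7.64). Arch mesenchyme markers fell for 6 of 8 genes (9.73 to 9.93, then 8.19 to 8.25), and so did 6 of 8 epithelial markers (8.04 to 8.16, then 7.08 to 7.16). Of the muscle markers, 2 precursor markers (Myf5 and Myod1) and 4 of differentiated muscle (Myh3, Actn2, Tnnt3 and Tnnc2) needed the E11.5 arrays to pass the filter, so those counts are in part set by the filter. Without these 6 genes, 4 of 4 precursor markers and 4 of 5 of differentiated muscle rose. The muscle precursor marker Pax7 did not pass the filter. All 3 tested macrophage markers rose (5.35 to 5.65, then 6.39 to 6.47), and 2 of 7 endothelial markers fell (7.04 to 7.17, then 6.25 to 6.76). Of 5 tested tendon and connective tissue markers, Osr1 and Scx rose, by 2.83 ± 0.16 and 1.19 ± 0.20, and Lum was lower, with a difference of -2.01 ± 0.23 (limma adjusted p = 4.59e-05, 0.0116 and 0.00129). The part of these shifts in the Eya1 and Eya4 differences was not tested.

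**Figure D4:**
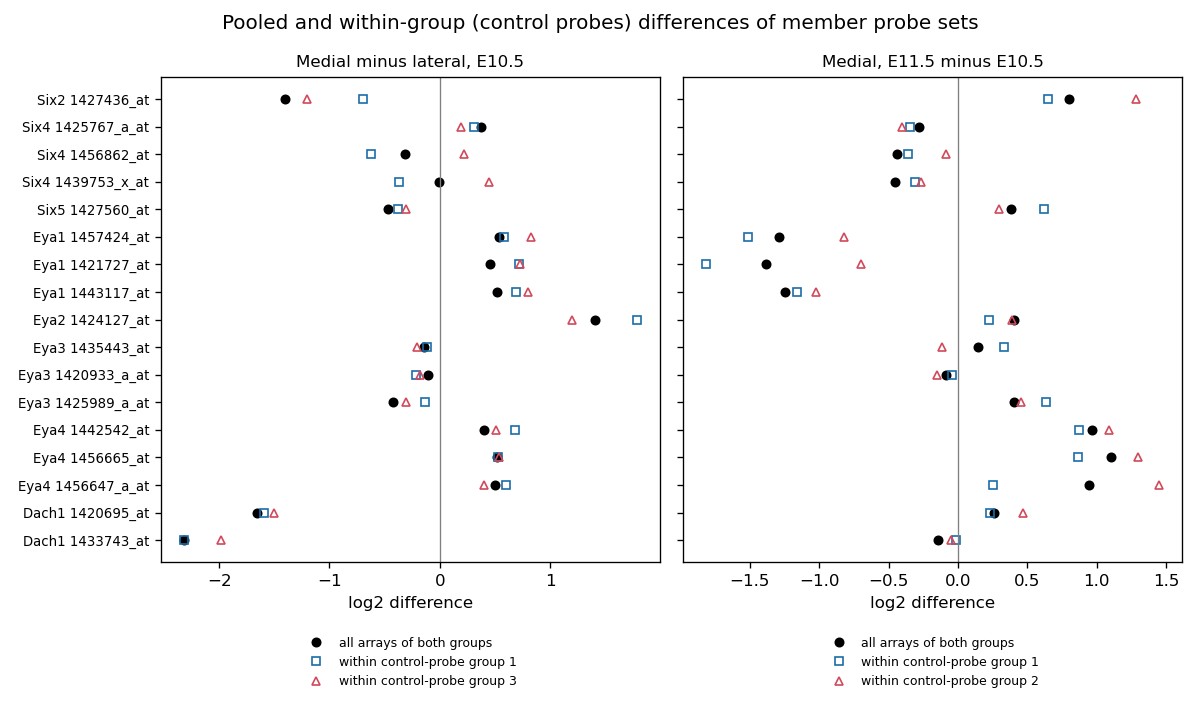
Differences (log2) of the member probe sets over all arrays (black) and between single or few arrays of the same control-probe group (coloured): medial minus lateral at E10.5 within groups 1 and 3 on the left, medial E11.5 minus E10.5 within groups 1 and 2 on the right. Coloured and black points come from the same arrays, so the sign cannot change where the arrays of both sides do not overlap. That is so for Dach1 and Eya2 between regions and for Eya1 and the called Eya4 probe set between stages.

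The single E14.5 array, from tissue labelled tongue, stood far from E11.5 for many genes: 15.9% of all tested probe sets were at least 2-fold beyond both E11.5 arrays, 6.34% higher and 9.52% lower. Of the 17 probe sets, 4 were lower and 1 higher by this rule, with no test. Eya1 was lower again, at 5.78 and 3.08 in 2 probe sets, or -2.39 and -2.12 from E11.5, and 4.36 (-0.71) in the third. Eya4 by 1456665_at went back to 6.03, near its E9.7 value, a difference of -2.34, while 1442542_at read 8.02 (-0.58) and 1456647_a_at 4.96 (-1.31). Six4 by 1425767_a_at read 7.07, the lowest of the 11 arrays (-1.25). On the deposited scale, where the low-signal E11.5 array enters unscaled, 10 of the 17 differences turned from lower to higher at E14.5. These took in Six4 by 1425767_a_at (0.49), Eya1 by 1443117_at (0.61) and Eya4 by 1442542_at (1.19) and 1456647_a_at (0.13), while Eya1 by 1457424_at and 1421727_at and Eya4 by 1456665_at stayed lower.

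The probe set at least 2-fold higher at E14.5 was 1 of the 2 tested for Dach1. Probe set 1433743_at read 6.10 against 3.22 and 3.91 at E11.5, a difference of 2.53, and reached the range of the lateral E10.5 arrays. The other probe set read 5.14, 0.57 above E11.5 and below every lateral E10.5 array. The Eya2 value of 6.26 and the Six5 value of 7.40 were the highest of the 11 arrays for these genes, and Six2 read 6.81, with a difference from E11.5 of -0.32 that turned to 1.41 on the deposited scale and 0.058 with median centring. Markers of differentiated muscle had a mean of 11.7 on this array, against 7.08 to 7.64 at E11.5. Other marker lists differed as well. Epithelial markers had a mean of 9.08 (7.08 to 7.16 at E11.5) and macrophage markers 7.46 (6.39 to 6.47). Red cell markers were lower, at 7.75 (10.6 to 10.9 at E11.5). The part of these shifts in the levels of the member genes was not tested.

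Ordered by group mean, Six2 was highest in lateral E10.5, then medial E11.5, medial E14.5, medial E10.5, lateral E9.7 and medial E9.7, and only the medial E10.5 and lateral E9.7 values overlapped among neighbours. A neighbour with 1 array has no spread of its own. The order for Eya2 was medial E14.5, medial E11.5, medial E10.5, lateral E9.7, lateral E10.5 and medial E9.7. Its E11.5 and E10.5 medial values overlapped, and so did its lateral E10.5 and medial E9.7 values. For Six5 the order was medial E14.5, lateral E10.5, medial E11.5, medial E10.5, lateral E9.7 and medial E9.7, with overlaps between the middle groups. Eya1 by 1457424_at ran from medial E10.5 through lateral E10.5, lateral E9.7, medial E9.7 and medial E11.5 to medial E14.5, a span of 3.68, and its lateral values at both stages overlapped. Eya4 by 1456665_at ran from medial E11.5 through medial E10.5, lateral E10.5, medial E14.5 and lateral E9.7 to medial E9.7, with no overlap between neighbours. Dach1 by 1420695_at ran from lateral E10.5 through lateral E9.7, medial E14.5, medial E9.7 and medial E11.5 to medial E10.5, also with none. By 1433743_at medial E14.5 came first and overlapped lateral E10.5, and the lowest 3 groups (medial E9.7, E10.5 and E11.5) overlapped each other in turn. Eya3 lay between 7.78 and 8.28 by 1435443_at, 7.40 and 7.87 by 1420933_a_at and 5.03 and 6.04 by 1425989_a_at over the 11 arrays. The dim probe sets ranged from 3.51 to 4.68 for Six4, 2.47 to 3.02 for Eya3, 3.05 to 3.62 for Eya4 and 3.07 to 4.27 for Dach1.

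Probe sets of 1 gene did not always move alike. Across the 11 arrays the 3 Eya1 probe sets correlated at r = 0.897 to 0.994, the 3 Eya4 probe sets at 0.785 to 0.925 and the 2 Dach1 probe sets at 0.879. The Six4 probe sets 1456862_at and 1439753_x_at correlated at 0.932 with each other but at 0.192 and 0.27 with 1425767_a_at, and the Eya3 probe sets at -0.0991 to 0.416. The suffix _a marks a probe set made for several transcripts of a gene and _x one that may also bind other sequences. The correlations are descriptions over arrays that share groups and scaling.

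Among 3877 other genes whose group means spanned at least 2-fold, the patterns closest to each member over the 11 arrays were picked by Pearson r. For Six2 they were Cacna1g (r = 0.92), Synpo (r = 0.919), Rnf150 (r = 0.916), and for Six4 (by 1425767_a_at) Ddias (r = 0.977), Ccdc66 (r = 0.97), Cdca2 (r = 0.968). The other tested Six4 probe sets correlated only weakly with 1425767_a_at. Six5 was closest to Scarf2 (r = 0.956), Cdh2 (r = 0.954), Phldb2 (r = 0.943), and Eya1 to Zfp647 (r = 0.969), Mecom (r = 0.968), Efcab11 (r = 0.966). Eya2 had Cavin2 (r = 0.961), Rgcc (r = 0.959), Acvr2a (r = 0.941) as its nearest, and Eya4 (by 1442542_at) Dnah1 (r = 0.957), Elf4 (r = 0.952), Fam171b (r = 0.952). For Dach1 they were Nr2f1 (r = 0.948), Ccn2 (r = 0.936), Dlx4 (r = 0.929). Eya3 (by 1435443_at), whose own span was small, had lower values: Palm (r = 0.803), Itga5 (r = 0.796), Ager (r = 0.79). These are the highest of 3877 values each (3878 for Eya3) and are given as descriptions over arrays that share groups.

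Other genes of the network were read from their brightest probe set. Of 12 further genes of the sine oculis, Dach, Pax and Sobp families, 10 had a named probe set and 4 passed the filter (Dach2, Pax3, Pax9 and Sobp), and limma called none in either comparison (2 in the first and 2 in the second at an unadjusted p under 0.05). The median difference of these 4 was -0.36 between the regions and 0.47 between E11.5 and E10.5, against -0.01 and -0.02 for all probe sets. Dach2, the second Dach gene, differed by -0.66 ± 0.22 between medial and lateral tissue (limma adjusted p = 0.201). Pax3, a muscle and neural crest regulator, was at least 2-fold higher in lateral E10.5 than lateral E9.7. Of 12 tested corepressors and partners, Skil, a Ski relative, was higher in medial E10.5 tissue by 0.62 ± 0.14 (limma adjusted p = 0.0499), and limma called none at E11.5 (4 at an unadjusted p under 0.05). Their median differences were 0.01 and -0.06.

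Of 14 tested genes reported elsewhere as targets of sine oculis family or Eya proteins, 1 was higher and 2 were lower in medial E10.5 tissue, with a median of -0.13. Gata3, a zinc-finger transcription factor, was higher by 3.08 ± 0.13, and the mesenchymal forkhead genes Foxc1 and Foxc2 differed by -1.73 ± 0.29 and -1.23 ± 0.18 (limma adjusted p = 2.18e-05, 0.0126 and 0.00715). At E11.5, 4 were higher than at E10.5 and 3 lower, with a median of -0.33. The higher ones were the myogenic regulators Myog (5.48 ± 0.24), Myod1 (4.13 ± 0.18) and Myf5 (3.73 ± 0.35) and their cofactor Mef2c (0.95 ± 0.15). The lower ones were Sall1 (-1.61 ± 0.26), Gata3 (-1.26 ± 0.15) and Lef1 (-1.0 ± 0.14). Gata3 reached the filter level on no lateral E10.5 array, Sall1 on no E11.5 array and Myog on no medial E10.5 array. Myod1 and Myf5 needed the E11.5 arrays to pass the filter. With Myog they are also in the muscle marker lists above, so these counts are not separate from the marker counts.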

How the data were processed

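RNA was hybridised to 11 Affymetrix arrays, 1 for each sample, with biotinylated cRNA made from 3 ug of total RNA per sample, per the labels' protocols. The deposited values are log2 signals, which the authors produced with Affymetrix Expression Console 1.1, per the submitters' processing notes; the algorithm is not given in the sources used here, and the log base was inferred from the range of the values. They were quantile-normalized over the 11 arrays. After 64 control probe sets were left out, probe sets were fitted with limma 3.58.1 (lmFit and eBayes, R 4.3.3), 1 mean per group over 6 groups with 5 residual degrees of freedom, with Benjamini-Hochberg adjustment over the 24339 tested probe sets. Where a side had 1 array no test was made, and a probe set was counted where even the closest arrays of both sides were at least 2-fold apart. Names came from the platform annotation, updated through Entrez ID to RefSeq (GRCm38.p6, for names and promoter windows).

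All probe sets of the 8 genes are named. Of other gene lists, genes that passed the test are named, up to 4 a list by smallest adjusted p, with 1 representative probe set a gene. Dach2, Pax3, Scx between regions and muscle markers that needed the E11.5 arrays to pass the filter are named in addition, chosen after their values were seen. The genes and lists were chosen with earlier results of these data known. The fit was tested on simulated data. Scaling, filter, summary of probe sets, variance model and blocks were each changed in turn, and arrays were left out. The number of arrays limits the precision. No batch is given in the labels.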

Additional observations from a re-analysis of the deposited data

Results flagged for a closer look

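Some differences had opposite signs at 2 stages or in 2 regions. None of these contrasts of differences was tested, because each E9.7 group had 1 array. The medial minus lateral difference of Eya2 was -0.42 at E9.7 and 1.41 at E10.5. For Eya1 the pair was -0.066 and 0.54 by 1457424_at and -0.19 and 0.52 by 1443117_at. For Eya4 by 1456665_at it was -0.068 and 0.52. The E9.7 values of Eya1 and Eya4 were small and from 1 array a side. Their other tested probe sets kept 1 sign: 0.03 and 0.45 for Eya1 by 1421727_at. For Eya4 the pairs were 0.01 and 0.40 by 1442542_at and 0.22 and 0.50 by 1456647_a_at. Taken from E9.7 to E10.5, Eya2 differed by 1.41 in medial tissue and by -0.42 in lateral tissue, and Dach1 by 1420695_at by -0.41 and 0.57. Of these, only the Eya2 and Dach1 differences between regions at E10.5 passed a test of their own.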

How the results depend on the processing

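The count of called probe sets between regions at E10.5 (3 of 17) was 2 to 4 under the other filters, summaries of probe sets and variance options and with arrays only centred on their medians, and 3 with limma on the compared groups alone. It was 0 on the deposited scale, 12 with array weights, 7 with the control-probe group as a term and 7 without the 2 low-signal arrays. Leaving out 1 array gave 3 to 6, with 6 without medial replicate 1. For E11.5 against E10.5 the count (4 of 17) was 0 on the deposited scale, 1 with 1 probe set a gene and 2 with the mean of a gene's probe sets (both of which have 8 genes to call), 2 with only the groups compared, 9 with the control-probe group as a term, and 2 to 4 with 1 array left out (2 without E11.5 replicate 1). Over all probe sets, the 721 calls between regions became 2 on the deposited scale, 3154 with array weights, 1848 with the control-probe group as a term, and 394 and 395 without lateral replicates 2 and 3. The 1048 calls between stages became 0 (75 at an unadjusted p under 0.05), 648 with median centring, 554 with only the groups compared, 3153 with the control-probe group as a term, and 579 and 561 without E11.5 replicates 1 and 2. Some of these settings rest on fewer arrays or genes, and the cause of the changed counts was not tested for any setting. On the deposited scale the median of all probe sets was -1.05 between regions and -0.67 between stages.

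Among the untested counts, medial against lateral at E9.7 went from 1 to 2 at 1.5-fold. Medial E10.5 against E9.7 went from 2 to 0 on the deposited scale, 1 with median centring, 4 at 1.5-fold, 4 without the low-signal arrays and 2 to 4 with 1 array left out. Lateral E10.5 against E9.7 went from 2 to 4 at 1.5-fold, and E14.5 against E11.5 from 5 to 1 on the deposited scale.

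Six2 between regions passed in limma under 10 of the 18 alternatives run for it, among them the replicate block (adjusted p = 0.00632). The replicate block gave 4 calls in both comparisons. Between regions the replicate numbers did not pair the arrays: same-numbered medial and lateral arrays had deviations that correlated at 0.126, -0.251 and 0.466. Same-numbered medial E10.5 and E11.5 arrays correlated at 0.594 and 0.434, but these are only 2 pairs, the first being the 2 low-signal arrays, and the labels give no shared source.

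In the tested comparisons signs turned as follows, in probe sets that were not called. Between regions, the deposited scale gave -0.58 for Six4 (1425767_a_at), -0.42, -0.67 and -0.61 for Eya1 and -0.64, -0.54 and -0.64 for Eya4. Median centring gave 0.0068 and 0.044 for Eya3 and 0.13 for Six4 (1439753_x_at), which array weights, the control-probe group and leaving out the low-signal arrays put at 0.069, 0.067 and 0.10, and single arrays left out at -0.18 to 0.11. Between stages, the deposited scale gave -0.29 for Six5, -0.27 for Eya2, -0.57 and -0.23 for Eya3 and -0.37 for Dach1. Array weights gave 0.046 for Eya3 (1420933_a_at), and single arrays left out gave -0.10 to 0.39 and -0.25 to 0.081 for Eya3 (1435443_at and 1420933_a_at) and -0.49 to 0.21 for Dach1 (1433743_at). In the untested comparisons, the deposited scale turned 10 of 17 signs from E11.5 to E14.5. Of them Six4 (1425767_a_at) was at least 2-fold lower after normalization and 0.49 there. The others were Six2 (1.41), Eya1 1443117_at (0.61), Eya4 1442542_at and 1456647_a_at (1.19 and 0.13), the other 2 tested Six4 and all 3 tested Eya3 probe sets. From medial E9.7 to E10.5 it turned 7: Six5, the 3 of Six4 and the 3 of Eya1 (1457424_at from 0.62 to -0.48). It turned 2 in lateral tissue over the same interval and 0 between regions at E9.7. Median centring turned 5, 3, 3 and 2 in these comparisons.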
